A study of Rattus norvegicus with 18 samples.

Results

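Interferon-induced genes are the genes that a cell switches on when an interferon, a cytokine of antiviral and antitumour defence, binds its receptor. Their expression was described here in the epithelia and the submucosal fibroblasts of the rat tongue through 3 stages of chemically induced carcinogenesis. Of 43 listed genes, 38 were named by their own symbol in the annotation of the array, among 14217 genes that a probe set names alone. The other 5 (Ddx58, Xaf1, Ifi47, Gbp5 and Trim21) were not matched by symbol and were not counted. The 38 genes had 49 probe sets, with 10 genes having several, and each gene was read from the probe set of highest mean log2 signal over the 18 samples. All 38 entered every comparison, since no filter on low signal was used.

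Male Sprague Dawley rats received 0.002% 4NQO (4-nitroquinoline oxide, a DNA-damaging carcinogen) in their drinking water, and tongue lesions at the dysplasia or the squamous cell carcinoma (SCC) stage were taken from week 14 to week 22. The normal tissue came from rats that drank distilled water, so the carcinogen and the stage cannot be told apart when a lesion is compared with normal tissue. The ages of the rats are not stated in the labels or methods. The epithelial sheet was separated with dispase, and the connective tissue was digested with collagenase, plated briefly, and its adherent cells collected as fibroblasts. Each of the 6 groups (normal, dysplasia and SCC, in epithelia and in fibroblasts) held 3 samples, each a pool of tissue from 3 rats, hybridised to 1 Affymetrix array.

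Type I interferons signal through a receptor with the kinases Jak1 and Tyk2 to a complex that holds Stat2 and Irf9 and binds the interferon-stimulated response element (ISRE). Interferon gamma signals through Ifngr1 and Ifngr2 with Jak1 and Jak2, and its response acts through the gamma-activated site (GAS). Some of the products, such as Irf1 and Irf7, are transcription factors that extend the response, others block viral RNA or viral entry, the chemokines draw T cells to the tissue, and Usp18 and Socs1 shut the signal down. In squamous epithelia these genes are known to respond to infection, to DNA damage and to cytokines of infiltrating lymphocytes.

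Promoter stretches of 8 members are shown because the members listed in the results below share these letters more often than other genes do. In the RefSeq promoters of the rat genome build GRCr8 (250 bases before to 50 bases after the start of the gene), 31 of the 38 members had an entry. The ISRE core, searched as GAAANNGAA on both strands (TTCNNTTTC on the other), was present in 17 of the 31 (54.8%), against 9.71% of all 33469 promoters. The GAS, searched as TTCNNNGAA, which reads the same on both strands, was present in 11 of the 31 (35.5%), against 8.87% of all promoters. In 15 members an ISRE core began within 150 bases before the start, 6 members held both motifs, and in Bst2 a GAS match overlapped an ISRE core. Each stretch of 70 bases is written 5′ to 3′ along the gene, with 1 match in capitals.
Gbp2 (ISRE core, chr2:234005657-234005726, + strand): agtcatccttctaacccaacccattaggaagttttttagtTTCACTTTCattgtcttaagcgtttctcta
Cxcl10 (ISRE core, chr14:15988816-15988885, + strand): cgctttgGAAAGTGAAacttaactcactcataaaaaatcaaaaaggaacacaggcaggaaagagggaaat
Ifitm3 (ISRE core, chr1:205541763-205541832, - strand): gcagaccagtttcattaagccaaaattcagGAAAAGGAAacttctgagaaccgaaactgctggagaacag
Ifit3 (ISRE core, chr1:241527253-241527322, + strand): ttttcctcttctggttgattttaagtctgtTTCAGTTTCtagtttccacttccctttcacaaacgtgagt
Oas1a (ISRE core, chr12:41330395-41330464, + strand): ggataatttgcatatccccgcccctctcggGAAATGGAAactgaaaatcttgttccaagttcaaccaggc
Irf7 (ISRE core, chr1:205800052-205800121, - strand): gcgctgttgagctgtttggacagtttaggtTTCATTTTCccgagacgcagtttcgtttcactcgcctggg
Parp14 (ISRE core, chr11:78408028-78408097, + strand): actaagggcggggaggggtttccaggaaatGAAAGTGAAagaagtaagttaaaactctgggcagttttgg
Irf1 (GAS, chr10:38417763-38417832, + strand): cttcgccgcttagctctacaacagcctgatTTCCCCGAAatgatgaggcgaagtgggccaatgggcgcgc
The marked match began 30 bases before the start of the gene in Gbp2, 243 in Cxcl10, 44 in Ifitm3, 43 in Ifit3, 41 in Oas1a, 68 in Irf7, 76 in Parp14 and 142 in Irf1. Such a match is a description of the sequence, and binding was not measured. Of the 22 members that were higher in SCC than in normal epithelia, 17 had a promoter entry and 11 of these held an ISRE core, against 6 of the 14 with an entry among the members that were not higher. Of the 11 members that were higher in SCC than in normal fibroblasts, 8 had an entry and 4 held an ISRE core, against 13 of 23 among the rest.

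Signals are given as log2 of the deposited probe set value, and differences as log2 fold changes ± standard error from limma, with p-values adjusted over all 31042 probe sets and called at 0.05. Where the call of a member did not hold with a single sample left out, each such sample is named, with the adjusted p it gave or their range. Calls of markers, of the other gene lists and of other probe sets were not checked in this way. Per-sample values are in the order of samples 1, 2 and 3. No detection calls were used. The mean signal of 15 members was under 6 in normal epithelia, of 9 in dysplasia and 3 in SCC epithelia, and of 2 in each fibroblast group. A log2 difference over so low a signal may not give the full size of a change, and no fold is given for it. The p-values measure the spread between pooled samples. With 3 samples against 3 an exact permutation test of a single gene could not reach below p = 0.1. A lower signal from a sample can come from fewer cells of a type or from less RNA per cell, which bulk arrays cannot tell apart.

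Averaged over the 38 members, the signal was 6.86, 6.72 and 6.92 (normal), 7.43, 7.33 and 7.51 (dysplasia) and 8.08, 8.68 and 7.56 (SCC) in the epithelia. No sample of an earlier stage reached the samples of the next stage. The fibroblasts had 8.89, 8.93 and 8.67 in the normal state, 8.78, 8.80 and 9.02 in dysplasia, and 9.17, 9.16 and 9.42 in SCC. All fibroblast samples but the normal sample 3 lay above every epithelial sample, and that sample lay just under SCC epithelia 2.

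**Figure D1:**
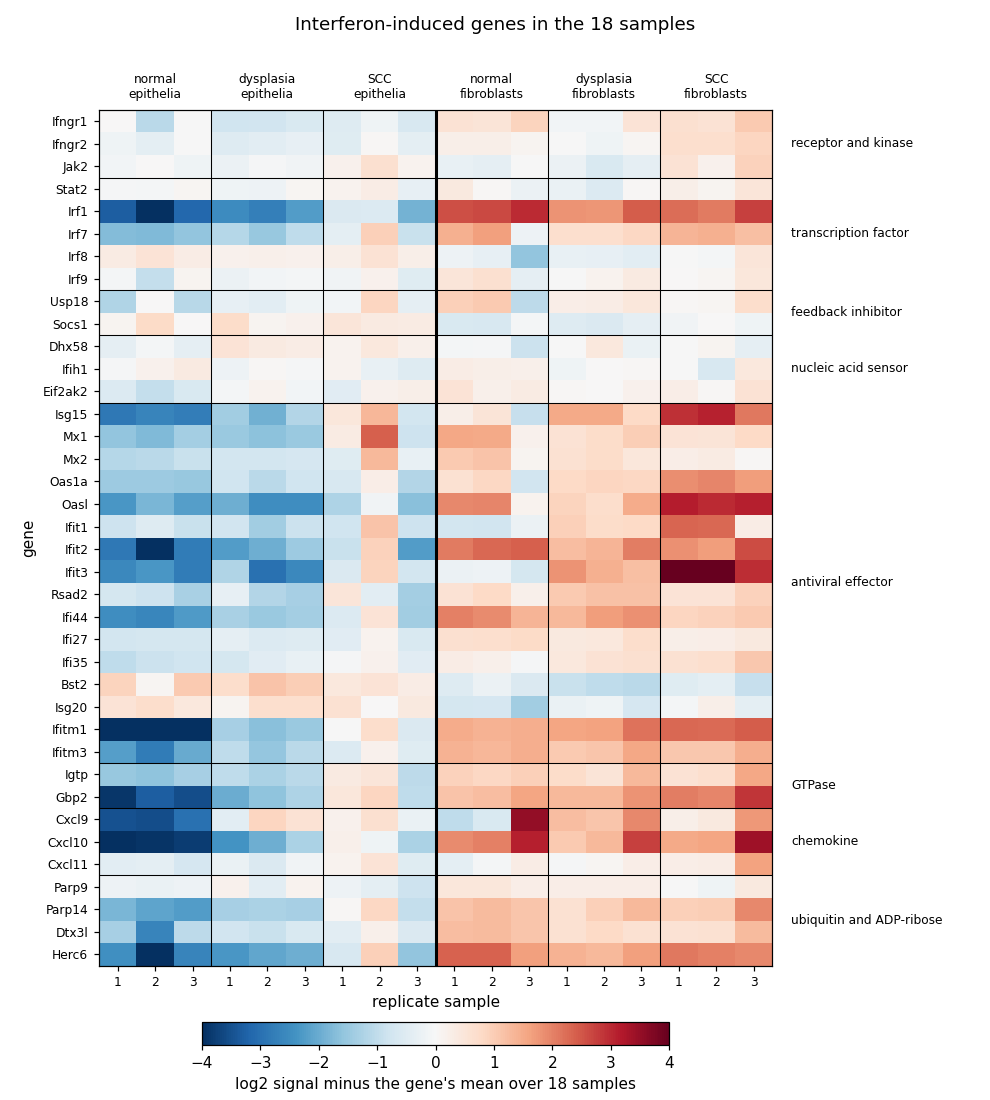
Log2 signal of the 38 members in the 18 samples, each gene centred on its own mean (colour, ending at 4 above and below it), with genes in rows by role and samples in columns by layer and stage. Most rows turn from blue towards white through the epithelial stages and are red in the fibroblasts, while Irf8, Socs1, Bst2 and Isg20 run the other way between the layers.

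In the epithelia the group mean of 23 members was higher at each later stage, and that of 2 was lower at each, as a description with no test. In the fibroblasts 10 members were higher at each later stage, while 17 had their lowest mean in dysplasia. These orders were not counted over all probe sets, so whether they set the members apart was not tested. From the normal to the dysplasia epithelia, 7 of the 38 members were higher and none was lower by the test, against 7.0% of all probe sets higher and 7.54% lower, and the median change was 0.34 against -0.06 over all probe sets. From the normal to the SCC epithelia, 22 members were higher and none was lower, against backgrounds of 12.6% and 17.3%, with a median of 0.92 against -0.09, while the methods' t-test with the same adjustment called 6. The count in dysplasia was 3 without normal epithelia 1, 4 without normal epithelia 3 and 4 without dysplasia epithelia 3. From the dysplasia to the SCC epithelia no member was called by limma, where 0.0129% of all probe sets were higher and 0.0129% lower. The changes of 31 members were positive, and 15 members had an unadjusted p under 0.05, as had 4402 of all 31042 probe sets. Without SCC epithelia 3, the sample with the lowest signal of 31 members in its group, 9 members were higher in that comparison, where 565 of all probe sets were higher and 171 lower, and with all 18 arrays in a single fit 1 was.

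The fibroblasts were compared in the same way. From the normal to the dysplasia fibroblasts no member was called (backgrounds 0.116% higher and 0.0548% lower). An unadjusted p under 0.05 was found for 12 members and for 5600 of all 31042 probe sets. From the dysplasia to the SCC fibroblasts, Ifit3 and Ifngr2 were higher and none was lower (1.52% and 0.322%). For these 2 stages each same-numbered pair of samples correlated over 0.1 in its deviations from the group means. Another pair reached 0.352, above the lowest same-numbered pair at 0.321, so the pairing was not settled. With the number as a block 6 members were higher: Ifit3, Isg15, Jak2, Gbp2, Ifngr2 and Ifngr1. In that fit 626 of all probe sets were higher and 220 lower. Aligned on the spike-in controls 24 were higher, where 9149 of all probe sets were higher and 12 lower, with a median of 0.71. The percentages in this paragraph are of the fit without block or alignment. From the normal to the SCC fibroblasts 11 members were higher and 1, Ifi44, was lower (7.82% and 7.43%), with a median of 0.13 against -0.05 over all probe sets, and the methods' t-test called 2. Aligned on the spike-in controls the counts there were 16 and 0, where 7217 of all probe sets were higher and 157 lower, with a median of 0.56. In the same comparison 7 of 8 neutrophil markers were higher, at averages of 10.40, 10.39 and 10.09 in SCC against 7.59, 7.41 and 7.85 in normal fibroblasts, as were 6 of 19 T and NK cell markers and 2 of 7 mast cell markers, Tpsab1 and Mcpt1. No macrophage marker of 15 was called, and 3 of 16 fibroblast markers were lower. The excess of 3′ over 5′ actin signal, a sign of RNA integrity, was 1.14 to 1.26 in SCC and 1.51 to 2.02 in normal fibroblasts on the log2 scale, and that of GAPDH was 0.0493 to 0.179 and 0.281 to 0.411. The part of these in the changes of the members was not tested.

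Fibroblast samples 1 and 2 of each stage were close to each other (Pearson r over all probe sets 0.992, 0.992 and 0.994 in the normal, dysplasia and SCC groups) and the third fibroblast samples stood apart (r of 0.961 to 0.976 with the others). Without the third samples of all stages, an alternative chosen after seeing the data, 6 members were higher and 14 lower from the normal to the dysplasia fibroblasts, where 3893 and 4339 of all probe sets were. The same omission gave 14 higher and 3 lower from dysplasia to SCC (2734 and 2285 of all probe sets), and 14 higher and 11 lower from normal to SCC (6254 and 6876). In SCC against normal fibroblasts 2 members were called without SCC fibroblasts 1, 3 without SCC fibroblasts 2, 5 without normal fibroblasts 1 and 4 without normal fibroblasts 2. In SCC against normal epithelia the count was 16 to 23 over the single samples left out.

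Marker genes were read beside the members. The 12 epithelial markers averaged 13.06 to 13.23 in all epithelia and 10.76 to 12.62 in the fibroblasts, where keratin 14 (Krt14), a gene of basal keratinocytes, was at 12.88 to 14.13, against 14.09 to 14.32 in the epithelia. The samples labelled fibroblasts thus carried an epithelial transcript as well as the fibroblast markers, which averaged 11.51 to 12.90 in them. The 16 fibroblast markers averaged 9.52, 11.43 and 7.53 in the SCC epithelia, against 6.43, 8.08 and 6.38 in the normal epithelia, and 4 of the 16 were higher by the test. The 15 macrophage and monocyte markers averaged 8.41, 9.41 and 7.10 in the SCC epithelia, against 6.06, 6.04 and 6.13 in the normal epithelia, and 10 of the 15 were higher. The 8 neutrophil markers averaged 8.01, 8.64 and 7.49 against 5.57, 5.94 and 5.58, and 4 were higher. Emcn, 1 of 9 endothelial markers, and Itgax and Cd86, 2 of 7 dendritic cell markers, were higher too, and no mast cell or skeletal muscle marker was. Batf3 of the dendritic cell list and Mb of the skeletal muscle list were lower. Of 19 T and NK cell markers 4 were higher and 3 lower in the same comparison, with averages of 6.09, 6.05 and 5.55 against 5.73, 5.84 and 5.73. SCC epithelia 2 had the highest signal of 31 members within its group and also the most macrophage and fibroblast marker signal, and SCC epithelia 3 the lowest of 31 members and the least of both marker lists. The neutrophil markers had the same order, as did the endothelial (7.24, 8.80 and 6.05), mast cell (6.90, 8.10 and 5.16) and skeletal muscle markers (6.51, 7.88 and 5.53). The last 3 lists averaged 5.46 to 6.39 in the normal epithelia. From the normal to the dysplasia epithelia 2 of the 15 macrophage markers, Aif1 and Tyrobp, and 2 of the 8 neutrophil markers, S100a8 and S100a9, were higher and no fibroblast marker was. The excess of 3′ over 5′ GAPDH signal was 0.0173 to 0.0765 (normal), 0.137 to 0.172 (dysplasia) and 0.182 to 0.241 (SCC) in the epithelia, with no overlap between stages, and that of actin was 1.65 to 1.87, 1.56 to 1.66 and 1.42 to 1.98. The part of these cells and of RNA integrity in the changes of the members was not tested.

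**Figure D2:**
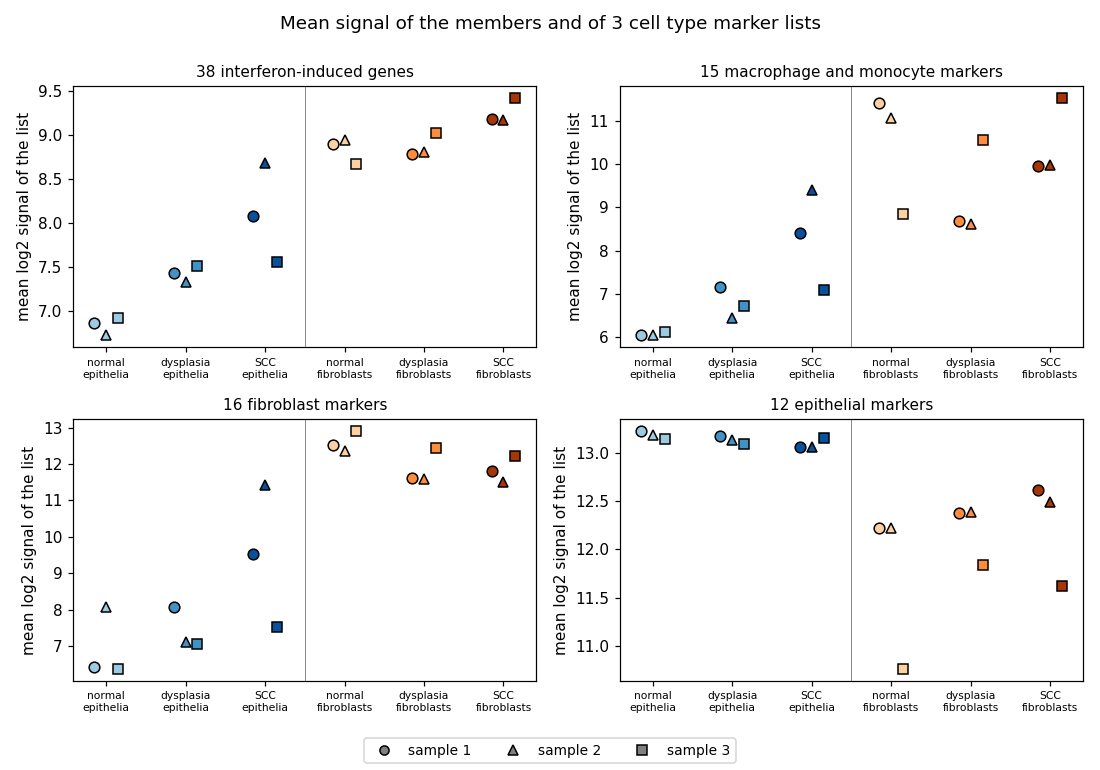
Mean log2 signal per sample of the 38 members and of 3 cell type marker lists (y axis), in the 6 groups (x axis), with 1 point per sample. In the SCC epithelia the order of the 3 samples, sample 2 above sample 1 above sample 3, was the same for the members (8.68, 8.08 and 7.56) as for the macrophage (9.41, 8.41 and 7.10) and fibroblast (11.43, 9.52 and 7.53) markers, and the epithelial markers stayed between 13.06 and 13.15.

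Of the 3 chemokines, 2 were higher in dysplasia and in SCC than in normal epithelia. Cxcl9, a ligand of Cxcr3, the chemokine receptor of activated T cells, that is induced chiefly by interferon gamma, was at 3.26, 3.19 and 3.77 (normal), 6.31, 7.58 and 7.30 (dysplasia) and 6.92, 7.37 and 6.48 (SCC) in the epithelia. Every lesion sample lay above every normal sample, and the dysplasia and SCC samples overlapped. The change was 3.66 ± 0.34 (adjusted p = 0.00173) in dysplasia and 3.52 ± 0.34 (adjusted p = 0.000313) in SCC against normal epithelia, where the normal signals were all under 4. Cxcl10, another Cxcr3 ligand, was at 3.82, 3.92 and 4.02 (normal), 5.44, 5.87 and 6.56 (dysplasia) and 8.04, 7.67 and 6.57 (SCC) in the epithelia. Its values did not overlap between the stages, and the changes were 2.04 ± 0.38 (adjusted p = 0.0109) in dysplasia and 3.51 ± 0.38 (adjusted p = 0.000463) in SCC against normal epithelia. Cxcl11, the remaining Cxcr3 ligand, was at 6.58, 6.61 and 6.31 (normal), 6.73, 6.41 and 6.84 (dysplasia) and 7.12, 7.55 and 6.51 (SCC) in the epithelia, a change of 0.56 ± 0.24 (adjusted p = 0.114) in SCC against normal epithelia with overlapping groups. In the fibroblasts Cxcl9 was at 5.71, 6.13 and 10.25 (normal), 7.96, 7.84 and 8.65 (dysplasia) and 6.97, 7.14 and 8.47 (SCC). The normal sample 3 was far above the other normal samples, and no fibroblast comparison of Cxcl9 passed the test. Cxcl10 was at 9.72, 9.85 and 10.94 (normal), 8.89, 9.14 and 10.57 (dysplasia) and 9.34, 9.41 and 11.21 (SCC), with the third sample highest at each stage and overlapping groups. Cxcl11 was at 6.59, 6.92 and 7.27 (normal), 6.94, 7.07 and 7.26 (dysplasia) and 7.25, 7.30 and 8.61 (SCC), a change of 0.79 ± 0.35 (adjusted p = 0.146) in SCC against normal fibroblasts. The change of Cxcl10 from normal to SCC was larger in the epithelia than in the fibroblasts by 3.69 ± 0.77 (adjusted p = 0.00538), and that of Cxcl9 differed by 3.35 ± 1.18 (adjusted p = 0.0647).

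The GTPases, which attack the vacuoles of intracellular pathogens, were both higher in SCC epithelia. Gbp2 was at 4.16, 4.76 and 4.49 (normal), 6.07, 6.44 and 6.82 (dysplasia) and 8.50, 8.91 and 7.04 (SCC) in the epithelia. No value of a stage reached the next, and Gbp2 was higher by 1.97 ± 0.43 (adjusted p = 0.0195) in dysplasia and by 3.68 ± 0.43 (adjusted p = 0.000647) in SCC than in normal epithelia, where its signals were under 5. The call in dysplasia was lost without normal epithelia 1 or 3, or dysplasia epithelia 2 or 3 (0.0521 to 0.082). Igtp was at 5.77, 5.67 and 5.95 (normal), 6.27, 6.02 and 6.21 (dysplasia) and 7.65, 7.78 and 6.25 (SCC) in the epithelia, and rose by 1.43 ± 0.35 (adjusted p = 0.0153) in SCC against normal epithelia, a call lost without normal epithelia 2 (0.0508). Its other probe set gave 0.29 (adjusted p = 0.226). In the fibroblasts Gbp2 was at 9.19, 9.29 and 9.64 (normal), 9.35, 9.36 and 9.85 (dysplasia) and 10.09, 10.0 and 10.90 (SCC), so that every SCC sample lay above every other. The rise of 0.96 ± 0.26 (adjusted p = 0.0394) in SCC against normal fibroblasts was lost without normal fibroblasts 1 or 2, or SCC fibroblasts 1 or 2 or 3 (0.0504 to 0.11). Igtp was at 8.22, 8.13 and 8.23 (normal), 8.02, 7.82 and 8.57 (dysplasia) and 7.87, 7.97 and 8.84 (SCC), with overlapping groups. The change of Gbp2 from normal to SCC was larger in the epithelia by 2.72 ± 0.54 (adjusted p = 0.00383).

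**Figure D3:**
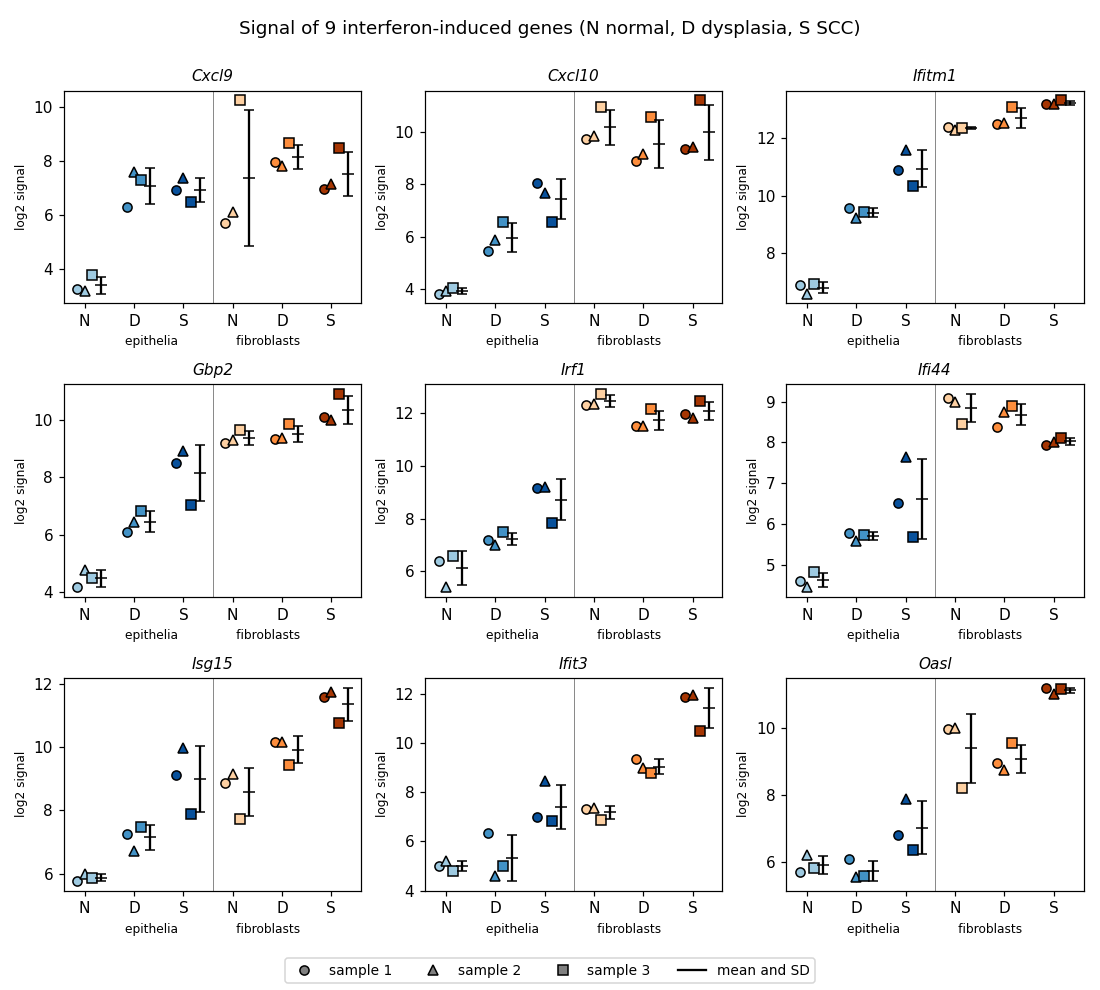
Log2 signal (y axis) of 9 members in each sample (points, shaped by sample number) with the mean and SD of each group (bars), by stage (N normal, D dysplasia, S SCC) in the epithelia on the left and the fibroblasts on the right of each panel. In the epithelia the mean of Ifitm1 was 6.79 ± 0.18 in the normal state, 9.40 ± 0.17 in dysplasia and 10.94 ± 0.64 in SCC (SD, n = 3 each), and Cxcl10, Gbp2 and Irf1 had the same order. In the fibroblasts the mean of Ifit3 was highest in SCC, at 11.43 ± 0.81, where Ifi44 was lowest, at 8.03 ± 0.09.

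Among the 16 antiviral effectors, 2 were higher in dysplasia and 11 in SCC than in normal epithelia, and none was lower. Ifitm1, a membrane protein that hinders the entry of viruses, was at 6.88, 6.58 and 6.91 (normal), 9.56, 9.23 and 9.41 (dysplasia) and 10.88, 11.60 and 10.33 (SCC) in the epithelia. The 3 stages were apart from each other, and the changes were 2.61 ± 0.28 (adjusted p = 0.00213) in dysplasia and 4.14 ± 0.28 (adjusted p = 0.000126) in SCC against normal epithelia, 17.7-fold in SCC. Its relative Ifitm3 was at 9.81, 9.21 and 10.0 (normal), 10.99, 10.47 and 10.94 (dysplasia) and 11.46, 12.19 and 11.53 (SCC) in the epithelia, with changes of 1.13 ± 0.26 (adjusted p = 0.0251) in dysplasia and 2.05 ± 0.26 (adjusted p = 0.000996) in SCC. The probe set of Ifitm3 may also read related sequences, and its call in dysplasia was lost without normal epithelia 1 or 2, or dysplasia epithelia 1 or 3 (0.0598 to 0.0957). In the fibroblasts Ifitm1 was at 12.39, 12.30 and 12.36 (normal), 12.49, 12.52 and 13.09 (dysplasia) and 13.20, 13.18 and 13.32 (SCC), all above the epithelial values. It rose by 0.88 ± 0.17 (adjusted p = 0.0143) in SCC against normal fibroblasts, a call lost without normal fibroblasts 2, or SCC fibroblasts 1 or 2 (0.0519 to 0.0585). Ifitm3 was at 13.40, 13.35 and 13.45 (normal), 13.06, 13.12 and 13.55 (dysplasia) and 13.08, 13.08 and 13.46 (SCC), and its changes there did not pass the test. The difference between the layers in the change from normal to dysplasia was 2.26 ± 0.34 (adjusted p = 0.00342) for Ifitm1 and 1.28 ± 0.33 (adjusted p = 0.0391) for Ifitm3. The call of Ifitm3 was lost without normal epithelia 1 or 2, or dysplasia epithelia 1 or 3, or normal fibroblasts 1 or 2 or 3, or dysplasia fibroblasts 1 or 2 (0.0603 to 0.104). From normal to SCC the differences were 3.26 ± 0.34 (adjusted p = 4.77e-05) for Ifitm1 and 2.24 ± 0.33 (adjusted p = 0.000509) for Ifitm3.

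Isg15, a ubiquitin-like modifier, rose in SCC of both layers with every array left out in turn, as did Ifit3. Its signal was 5.76, 5.98 and 5.87 (normal), 7.25, 6.70 and 7.46 (dysplasia) and 9.10, 9.97 and 7.89 (SCC) in the epithelia. The fibroblasts had 8.86, 9.15 and 7.71 (normal), 10.17, 10.15 and 9.42 (dysplasia) and 11.56, 11.73 and 10.75 (SCC). Each SCC sample was above each normal sample in both layers, and the changes were 3.11 ± 0.44 (adjusted p = 0.00151) in the epithelia and 2.77 ± 0.40 (adjusted p = 0.00556) in the fibroblasts. The difference between these changes was 0.34 ± 0.64 (adjusted p = 0.76). In dysplasia against normal, the values of 1.27 ± 0.44 (adjusted p = 0.0879) in the epithelia and 1.34 ± 0.40 (adjusted p = 0.169) in the fibroblasts did not pass the test.

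The Ifit proteins bind foreign RNA. Ifit3 was at 4.99, 5.22 and 4.78 (normal), 6.36, 4.59 and 5.0 (dysplasia) and 6.97, 8.44 and 6.81 (SCC) in the epithelia, with dysplasia sample 1 above the other samples of its stage. In the fibroblasts Ifit3 was at 7.33, 7.34 and 6.85 (normal), 9.36, 8.97 and 8.76 (dysplasia) and 11.86, 11.95 and 10.50 (SCC), with no overlap between stages and the third sample lowest at each stage. It rose by 2.41 ± 0.51 (adjusted p = 0.00851) in SCC against normal epithelia, and by 4.26 ± 0.37 (adjusted p = 0.000526) in SCC against normal fibroblasts, 19.2-fold, the highest change of the members in the fibroblasts. From dysplasia to SCC fibroblasts the rise was 2.40 ± 0.37 (adjusted p = 0.0153), lost without dysplasia fibroblasts 2, or SCC fibroblasts 1 or 2 (0.0735 to 0.0821), and from normal to dysplasia fibroblasts 1.86 ± 0.37 (adjusted p = 0.093), not past the test. Ifit1 was at 5.11, 5.42 and 5.06 (normal), 5.19, 4.56 and 5.10 (dysplasia) and 5.14, 7.09 and 5.12 (SCC) in the epithelia, where SCC sample 2 alone was high. In the fibroblasts Ifit1 was at 5.21, 5.19 and 5.72 (normal), 6.92, 6.68 and 6.76 (dysplasia) and 8.27, 8.26 and 6.26 (SCC), with SCC sample 3 below both other SCC samples. Its rise of 2.22 ± 0.47 (adjusted p = 0.0194) in SCC against normal fibroblasts was lost without normal fibroblasts 1 or 2, or SCC fibroblasts 1 or 2 (0.0609 to 0.0795). All fibroblast samples of Ifit2 were above its epithelial samples. It was at 5.61, 4.46 and 5.68 (normal), 6.24, 6.51 and 7.01 (dysplasia) and 7.57, 9.40 and 6.24 (SCC) in the epithelia. In the fibroblasts Ifit2 was at 10.55, 10.75 and 10.86 (normal), 9.72, 9.83 and 10.50 (dysplasia) and 10.28, 10.13 and 11.06 (SCC). It rose by 2.49 ± 0.69 (adjusted p = 0.0257) in SCC against normal epithelia, a call lost without normal epithelia 1 or 2, or SCC epithelia 1 (0.0508 to 0.0889), and had -0.23 ± 0.28 (adjusted p = 0.6) in the fibroblasts. The difference between the layers for Ifit2 was 2.72 ± 0.80 (adjusted p = 0.0315), lost without normal epithelia 2, or normal fibroblasts 2 or 3, or SCC fibroblasts 1 or 2 (0.0542 to 0.0796). For Ifit3 and Ifit1 it was -1.85 ± 0.68 (adjusted p = 0.0732) and -1.64 ± 0.72 (adjusted p = 0.132), neither past the test.

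Oas1a, a 2′-5′ oligoadenylate synthetase, which activates RNA decay, and its relative Oasl rose in SCC in both layers. Neither call held in either layer with every sample left out in turn. Oasl was at 5.71, 6.22 and 5.84 (normal), 6.08, 5.55 and 5.57 (dysplasia) and 6.82, 7.89 and 6.36 (SCC) in the epithelia. In the fibroblasts it was at 9.96, 9.99 and 8.19 (normal), 8.94, 8.74 and 9.53 (dysplasia) and 11.17, 11.02 and 11.14 (SCC), where the 3 SCC samples were above all others and normal sample 3 was the lowest. The changes in SCC against normal were 1.10 ± 0.35 (adjusted p = 0.043) in the epithelia and 1.73 ± 0.44 (adjusted p = 0.0333) in the fibroblasts. Oas1a, whose probe set may also read its close paralogs, was at 6.60, 6.60 and 6.56 (normal), 7.27, 7.0 and 7.27 (dysplasia) and 7.43, 8.32 and 6.89 (SCC) in the epithelia. The fibroblasts had 8.69, 8.91 and 7.29 (normal), 8.86, 8.93 and 8.89 (dysplasia) and 9.92, 10.0 and 9.74 (SCC). Oas1a rose by 0.95 ± 0.30 (adjusted p = 0.0399) in SCC against normal epithelia and by 1.59 ± 0.36 (adjusted p = 0.0226) in SCC against normal fibroblasts. The call of Oasl was lost without normal epithelia 1 or 2 or 3, or SCC epithelia 1 or 2 (0.0613 to 0.119) in the epithelia, and without SCC fibroblasts 1 or 2 (0.1 to 0.109) in the fibroblasts. That of Oas1a was lost without normal epithelia 1 or 2 or 3, or SCC epithelia 1 (0.0664 to 0.093), and without SCC fibroblasts 1 or 2 (0.0831 to 0.0863).

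Mx1 and Mx2, dynamin-like GTPases that trap viral ribonucleoproteins, were high in SCC sample 2 of the epithelia. Mx1 was at 3.86, 3.69 and 4.10 (normal), 3.97, 3.82 and 3.97 (dysplasia) and 5.78, 7.84 and 4.62 (SCC) in the epithelia. Mx2 was at 4.24, 4.28 and 4.48 (normal), 4.64, 4.62 and 4.70 (dysplasia) and 4.87, 6.66 and 5.07 (SCC) in the epithelia. All SCC samples of both genes lay above the normal samples, and the changes were 2.19 ± 0.64 (adjusted p = 0.0317) for Mx1 and 1.20 ± 0.39 (adjusted p = 0.0468) for Mx2. The call of Mx1 was lost without normal epithelia 1 or 2 or 3, or SCC epithelia 1 (0.0546 to 0.0895), and that of Mx2 without normal epithelia 1 or 2 or 3 (0.0838 to 0.115). A second probe set of Mx2 gave -0.19 (adjusted p = 0.307). In the fibroblasts Mx1 was at 7.01, 6.95 and 5.63 (normal), 6.02, 6.20 and 6.44 (dysplasia) and 5.99, 5.98 and 6.24 (SCC), and the fibroblast samples of Mx2 were at 6.42, 6.49 and 5.47 (normal), 5.98, 6.09 and 5.82 (dysplasia) and 5.64, 5.70 and 5.42 (SCC). The groups overlapped there, with changes of -0.46 ± 0.33 (adjusted p = 0.361) for Mx1 and -0.54 ± 0.26 (adjusted p = 0.171) for Mx2 in SCC against normal. The differences between the layers were 2.65 ± 0.78 (adjusted p = 0.031) for Mx1 and 1.74 ± 0.50 (adjusted p = 0.0278) for Mx2. They were lost for Mx1 without normal epithelia 1 or 2, or normal fibroblasts 1 or 2, or SCC fibroblasts 1 or 2 (0.0572 to 0.0691), and for Mx2 without normal epithelia 1 or 2, or normal fibroblasts 1 or 2, or SCC fibroblasts 1 or 2 (0.0514 to 0.0639).

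Ifi44, an interferon-induced protein of the cytoplasm, was the 1 member that was higher in SCC of 1 layer and lower in SCC of the other by the test. It was at 4.60, 4.46 and 4.82 (normal), 5.79, 5.59 and 5.72 (dysplasia) and 6.52, 7.63 and 5.68 (SCC) in the epithelia, and rose by 1.98 ± 0.40 (adjusted p = 0.00653) in SCC against normal epithelia. In the fibroblasts Ifi44 was at 9.10, 8.98 and 8.44 (normal), 8.39, 8.75 and 8.90 (dysplasia) and 7.95, 8.02 and 8.12 (SCC), each SCC sample below each other sample. It fell there by 0.81 on the log2 scale (standard error 0.20, adjusted p = 0.0306), a call lost without normal fibroblasts 1 or 2, or SCC fibroblasts 1 or 2 (0.0924 to 0.11), and the difference between the layers was 2.80 ± 0.47 (adjusted p = 0.00139). With the arrays aligned on their spike-in controls the call in the fibroblasts was lost too (adjusted p = 0.587).

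Ifi35 rose in both layers, and was at 7.45, 7.58 and 7.65 (normal), 7.75, 8.0 and 8.17 (dysplasia) and 8.41, 8.63 and 8.01 (SCC) in the epithelia. In the fibroblasts Ifi35 was at 8.76, 8.66 and 8.39 (normal), 8.86, 9.02 and 9.08 (dysplasia) and 9.08, 9.13 and 9.52 (SCC). The changes of Ifi35 in SCC against normal were 0.79 ± 0.17 (adjusted p = 0.0103) in the epithelia and 0.64 ± 0.16 (adjusted p = 0.0334) in the fibroblasts. The call in the fibroblasts was lost without normal fibroblasts 1 or 2 or 3, or SCC fibroblasts 1 or 2 or 3 (0.0529 to 0.0852). Isg20, an exonuclease that degrades RNA, was at 7.71, 7.87 and 7.58 (normal), 7.28, 7.85 and 7.84 (dysplasia) and 7.78, 7.17 and 7.56 (SCC) in the epithelia, with overlapping groups. In the fibroblasts Isg20 was at 6.45, 6.49 and 5.79 (normal), 6.90, 7.01 and 6.48 (dysplasia) and 7.08, 7.40 and 6.79 (SCC), and rose by 0.85 ± 0.24 (adjusted p = 0.0471) in SCC against normal fibroblasts, lost without normal fibroblasts 1 or 2 or 3, or SCC fibroblasts 1 or 2 (0.0744 to 0.166). The change of Isg20 was lower in the epithelia than in the fibroblasts, by -1.07 ± 0.33 (adjusted p = 0.0383), lost without normal epithelia 1 or 2 or 3, or SCC epithelia 2 or 3, or normal fibroblasts 3, or SCC fibroblasts 1 or 2 (0.0527 to 0.104). Ifi27, a protein of mitochondria and the nuclear envelope, was at 11.51, 11.55 and 11.56 (normal), 11.89, 11.71 and 11.75 (dysplasia) and 11.81, 12.38 and 11.64 (SCC) in the epithelia. In the fibroblasts Ifi27 was at 12.91, 12.93 and 13.02 (normal), 12.64, 12.66 and 12.97 (dysplasia) and 12.48, 12.53 and 12.64 (SCC). Its changes in SCC against normal were 0.40 ± 0.18 (adjusted p = 0.119) in the epithelia and -0.40 ± 0.13 (adjusted p = 0.0687) in the fibroblasts. The difference between the layers, 0.80 ± 0.22 (adjusted p = 0.023), was lost without SCC fibroblasts 1 or 2 (0.0522 to 0.0582) and with spike-in alignment (adjusted p = 0.581). Rsad2 (viperin), which makes a chain-terminating nucleotide, was at 8.40, 8.29 and 7.81 (normal), 8.78, 7.92 and 7.78 (dysplasia) and 9.59, 8.69 and 7.75 (SCC) in the epithelia. In the fibroblasts Rsad2 was at 9.68, 9.89 and 9.29 (normal), 10.14, 10.26 and 10.29 (dysplasia) and 9.65, 9.64 and 10.01 (SCC). No stage comparison of Rsad2 passed the test. Bst2 (tetherin), which holds budding virions at the cell surface, ranged between 10.97 and 12.04 in the epithelia and between 9.82 and 10.64 in the fibroblasts.

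Of the 5 transcription factors, Irf1 and Irf7 rose in SCC epithelia. Irf1, which drives many of the genes that interferon gamma induces, was at 6.41, 5.40 and 6.59 (normal), 7.21, 7.0 and 7.48 (dysplasia) and 9.16, 9.19 and 7.83 (SCC) in the epithelia. The stages did not overlap, the change was 2.59 ± 0.41 (adjusted p = 0.00238) in SCC against normal epithelia, and 1.10 ± 0.41 (adjusted p = 0.106) in dysplasia. In the fibroblasts Irf1 was at 12.30, 12.35 and 12.72 (normal), 11.52, 11.51 and 12.15 (dysplasia) and 11.95, 11.81 and 12.47 (SCC), a change of -0.38 ± 0.24 (adjusted p = 0.287) in SCC, and the difference between the layers was 2.97 ± 0.50 (adjusted p = 0.00144). Irf7, the amplifier of type I interferon production, was at 7.54, 7.50 and 7.68 (normal), 8.11, 7.74 and 8.25 (dysplasia) and 8.88, 10.20 and 8.38 (SCC) in the epithelia, and rose by 1.58 ± 0.39 (adjusted p = 0.0159) in SCC against normal epithelia. The fibroblasts had 10.70, 10.92 and 9.07 (normal), 9.95, 9.94 and 10.11 (dysplasia) and 10.62, 10.70 and 10.46 (SCC), with normal sample 3 the lowest. Irf8, a factor of myeloid cells, was at 10.23, 10.44 and 10.18 (normal), 10.08, 10.11 and 10.07 (dysplasia) and 10.12, 10.46 and 10.14 (SCC) in the epithelia. In the fibroblasts Irf8 was at 9.68, 9.55 and 8.32 (normal), 9.60, 9.56 and 9.46 (dysplasia) and 9.87, 9.81 and 10.38 (SCC), a change of 0.83 ± 0.33 (adjusted p = 0.113) in SCC against normal fibroblasts. Stat2 and Irf9, parts of the complex that type I interferons activate, were at 8.14 to 8.76 and 7.26 to 8.39 in the epithelia and at 7.90 to 8.94 and 7.84 to 8.86 in the fibroblasts, and no stage comparison of either passed the test.

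None of the receptor and kinase genes was called in the epithelia, and Jak2 and Ifngr2 rose in SCC fibroblasts. Jak2 was at 7.70, 7.84 and 7.64 (normal), 7.58, 7.79 and 7.67 (dysplasia) and 8.01, 8.45 and 7.95 (SCC) in the epithelia, a change of 0.41 ± 0.15 (adjusted p = 0.0658) in SCC against normal epithelia. In the fibroblasts Jak2 was at 7.52, 7.46 and 7.79 (normal), 7.57, 7.21 and 7.46 (dysplasia) and 8.39, 8.0 and 8.73 (SCC), with each SCC sample above every other sample. It rose by 0.78 ± 0.20 (adjusted p = 0.0342) in SCC against normal fibroblasts, lost without normal fibroblasts 1 or 2, or SCC fibroblasts 1 or 3 (0.054 to 0.112). Ifngr2, the signalling chain of the interferon gamma receptor, was at 9.73, 9.49 and 9.88 (normal), 9.37, 9.48 and 9.54 (dysplasia) and 9.39, 9.93 and 9.49 (SCC) in the epithelia. In the fibroblasts it was at 10.11, 10.12 and 9.98 (normal), 9.87, 9.72 and 9.97 (dysplasia) and 10.55, 10.54 and 10.76 (SCC), again with the SCC samples above all others. The rises were 0.55 ± 0.13 (adjusted p = 0.0259) against normal and 0.76 ± 0.13 (adjusted p = 0.023) against dysplasia fibroblasts. The call against normal was lost without normal fibroblasts 1 or 2, or SCC fibroblasts 1 or 2 (0.0642 to 0.0824), and that against dysplasia without dysplasia fibroblasts 1 or 2, or SCC fibroblasts 1 or 2 (0.0822 to 0.114). The change of Ifngr2 from normal to SCC differed between the layers by -0.64 ± 0.20 (adjusted p = 0.043), lost without normal epithelia 1 or 3, or SCC epithelia 1 or 3, or normal fibroblasts 1 or 2 or 3, or SCC fibroblasts 1 or 2 or 3 (0.0617 to 0.106). A second probe set of Ifngr2 was lower in SCC than in normal epithelia (-0.53, adjusted p = 0.00917), where the probe set used gave -0.10 ± 0.16 (adjusted p = 0.673). Ifngr1, the ligand-binding chain, was at 9.97 to 11.07 in the epithelia and 10.95 to 12.10 in the fibroblasts.

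Of the 3 nucleic acid sensors 2 rose in the epithelia, and neither feedback inhibitor was called. Eif2ak2 (PKR), which halts translation on double-stranded RNA, was at 6.13, 5.69 and 6.05 (normal), 6.57, 6.80 and 6.55 (dysplasia) and 6.22, 6.84 and 6.88 (SCC) in the epithelia. It rose by 0.69 ± 0.20 (adjusted p = 0.0492) in dysplasia and 0.69 ± 0.20 (adjusted p = 0.0292) in SCC against normal epithelia. The call in dysplasia was lost without normal epithelia 1 or 2 or 3, or dysplasia epithelia 1 or 2 or 3 (0.0813 to 0.15), and that in SCC without normal epithelia 2 or 3, or SCC epithelia 2 or 3 (0.0575 to 0.0971). Dhx58 (LGP2), a helper of RNA sensing whose probe set may read other sequences, was at 6.37, 6.65 and 6.36 (normal), 7.28, 7.08 and 7.02 (dysplasia) and 6.88, 7.14 and 6.92 (SCC) in the epithelia, and rose by 0.66 ± 0.13 (adjusted p = 0.0137) in dysplasia and 0.52 ± 0.13 (adjusted p = 0.0177) in SCC against normal epithelia. The call in dysplasia was lost without normal epithelia 1 or 3 (0.051 to 0.0548), and that in SCC without normal epithelia 1 or 3, or SCC epithelia 2 (0.0569 to 0.0638). The other probe sets of Dhx58 gave larger rises, 1.32 and 1.02 in dysplasia and 1.72 and 1.35 in SCC against normal epithelia. From dysplasia to SCC they gave 0.40 and 0.33 (adjusted p = 0.309 and 0.375), against -0.14 ± 0.13 for the probe set used. By them the change from normal to SCC was higher in the epithelia than in the fibroblasts (1.66 and 1.35, adjusted p = 0.0166 and 0.0195), where the probe set used gave 0.28 ± 0.31 (adjusted p = 0.57). In the fibroblasts Eif2ak2 was at 7.19, 6.85 and 6.99 (normal), 6.72, 6.66 and 6.83 (dysplasia) and 6.92, 6.70 and 7.25 (SCC). Dhx58 was there at 6.64, 6.69 and 5.87 (normal), 6.72, 7.17 and 6.45 (dysplasia) and 6.72, 6.83 and 6.37 (SCC), and neither was called. Ifih1 (MDA5), a sensor of long double-stranded RNA, was at 4.46 to 5.34 in the epithelia and 4.34 to 5.39 in the fibroblasts. The sensor Ddx58 appears in the annotation as Rig1, which is outside the 38 counted, and averaged 6.61 in normal, 6.58 in dysplasia and 6.67 in SCC epithelia. Usp18, which removes Isg15 and blocks the type I receptor, was at 6.55, 7.75 and 6.64 (normal), 7.41, 7.32 and 7.56 (dysplasia) and 7.63, 8.60 and 7.37 (SCC) in the epithelia. In the fibroblasts Usp18 was at 8.71, 8.78 and 6.70 (normal), 8.0, 8.05 and 8.20 (dysplasia) and 7.79, 7.82 and 8.45 (SCC). Its change in SCC against normal epithelia was 0.89 ± 0.37 (adjusted p = 0.102). Socs1, the inhibitor of Jak kinases, was at 7.02 to 7.78 in the epithelia and 6.39 to 7.05 in the fibroblasts, and a second probe set of it was lower in SCC than in normal epithelia (-0.57, adjusted p = 0.0465).

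In the group of ubiquitin ligases and ADP-ribosyl transferases, 3 of 4 rose in SCC epithelia. Herc6, the ligase that attaches Isg15 in rodents, was at 4.07, 2.51 and 3.89 (normal), 4.19, 4.45 and 4.58 (dysplasia) and 5.88, 7.48 and 4.95 (SCC) in the epithelia. It rose by 2.61 ± 0.60 (adjusted p = 0.0124) in SCC against normal epithelia, where its signals were under 5. Parp14, which adds ADP-ribose to proteins, was at 6.52, 6.26 and 6.13 (normal), 7.04, 7.08 and 7.02 (dysplasia) and 8.40, 9.18 and 7.40 (SCC) in the epithelia. Dtx3l, a partner of Parp9, was at 7.23, 5.93 and 7.52 (normal), 7.79, 7.68 and 7.95 (dysplasia) and 8.12, 8.76 and 7.98 (SCC) in the epithelia. The changes were 2.02 ± 0.36 (adjusted p = 0.00416) for Parp14 and 1.39 ± 0.38 (adjusted p = 0.0235) for Dtx3l, the call of Dtx3l being lost without SCC epithelia 2 (0.0675). A second probe set of Parp14 gave -0.12 (adjusted p = 0.683). In the fibroblasts Herc6 was at 8.89, 8.88 and 8.16 (normal), 7.90, 7.82 and 8.16 (dysplasia) and 8.62, 8.54 and 8.43 (SCC). Parp14 was there at 9.51, 9.61 and 9.47 (normal), 8.96, 9.30 and 9.67 (dysplasia) and 9.31, 9.34 and 10.29 (SCC). Dtx3l was there at 9.79, 9.83 and 9.67 (normal), 9.16, 9.36 and 9.17 (dysplasia) and 9.13, 9.16 and 9.81 (SCC). None of these passed the test there, and the changes were larger in the epithelia by 2.72 ± 0.69 (adjusted p = 0.0149) for Herc6, 1.90 ± 0.49 (adjusted p = 0.016) for Parp14 and 1.79 ± 0.45 (adjusted p = 0.0143) for Dtx3l. Parp9 was at 8.27 to 9.27 in the epithelia and 8.91 to 9.56 in the fibroblasts.

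**Figure D4:**
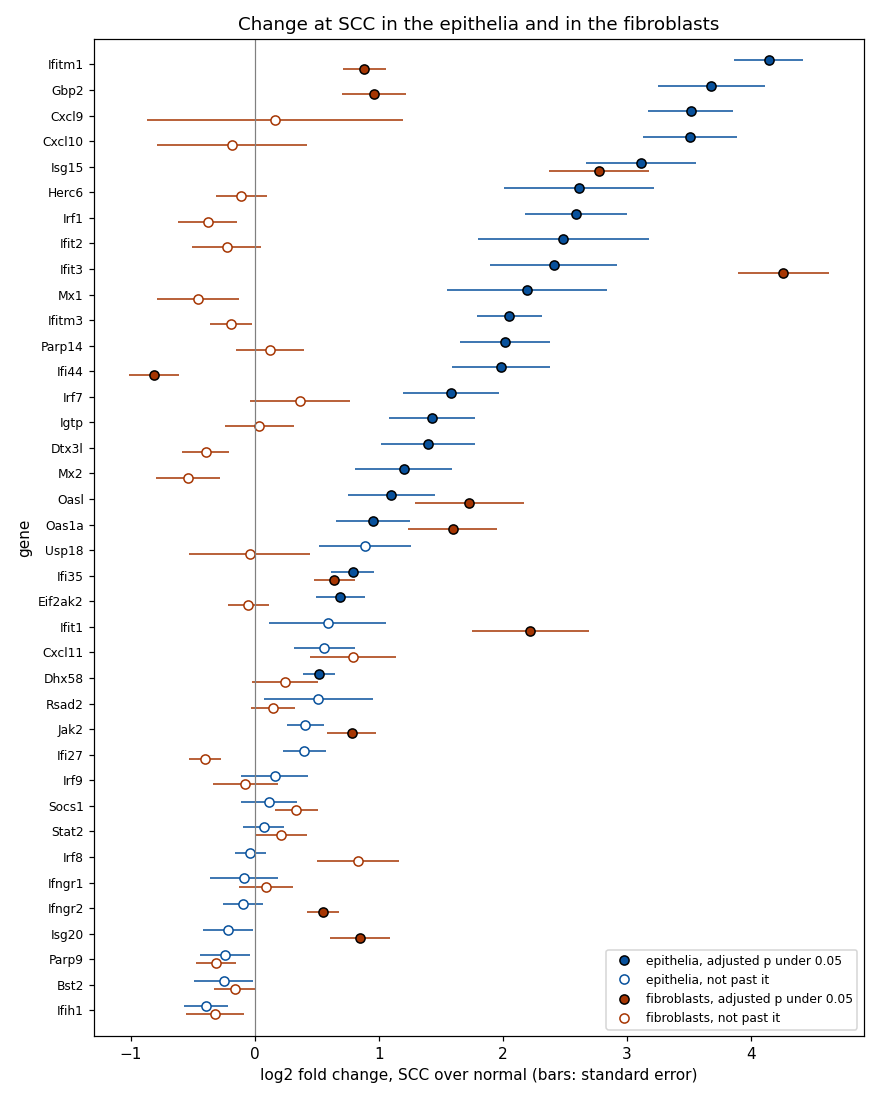
Log2 fold change of SCC over normal (x axis, bars are standard errors) of the 38 members (y axis, ordered by the epithelial change) in the epithelia (upper, blue) and the fibroblasts (lower, brown). Filled points passed the test in their layer: 22 in the epithelia, and 11 higher and 1 lower in the fibroblasts.

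The changes of the layers were compared in a single fit of the 18 arrays. From normal to dysplasia, the change was higher in the epithelia for 2 members, Ifitm1 and Ifitm3, and lower for none (backgrounds 1.93% and 2.20%). From dysplasia to SCC no member was called by limma (0.0387% and 0.612%), with 8 at an unadjusted p under 0.05, as were 3995 of all 31042 probe sets. By a second probe set of Ifngr2 the change was lower in the epithelia there (-0.98, adjusted p = 0.021). From normal to SCC it was higher in the epithelia for 13 and lower for 2, Isg20 and Ifngr2 (7.12% and 9.39%). The 13 were Cxcl10, Ifitm1, Irf1, Ifi44, Herc6, Gbp2, Ifit2, Mx1, Ifitm3, Parp14, Dtx3l, Mx2 and Ifi27. With the arrays aligned on spike-in controls 10 were higher and 6 lower, where 559 of all probe sets were higher and 6800 lower. From dysplasia to SCC 0 were higher and 13 lower with that alignment, where 14 of all probe sets were higher and 12283 lower. The percentages above are of the fit without that alignment. Of the 7 members that rose in SCC of both layers, Ifitm1 and Gbp2 were among the 13, and Ifit3, Isg15, Oasl, Oas1a and Ifi35 had no call in either direction. Other probe sets of called members did not pass this test for Mx2 (-0.06, adjusted p = 0.847), Parp14 (-0.36, adjusted p = 0.415) and Ifit2 (1.93, adjusted p = 0.0619).

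Between the layers at 1 stage, most members were lower in the epithelia than in the fibroblasts. In the normal state 4 were higher and 26 lower (backgrounds 35.7% and 27.7%). The largest differences were -6.32 ± 0.36 for Irf1, -6.25 ± 0.54 for Cxcl10, -5.56 ± 0.24 for Ifitm1 and -5.47 ± 0.57 for Ifit2 (adjusted p = 2.29e-09, 1.45e-07, 1.7e-10 and 8.05e-07). In dysplasia 3 were higher and 24 lower (27.4% and 23.0%), and in SCC 1 was higher and 23 lower (18.1% and 20.1%). At SCC the difference was -3.35 ± 0.36 for Irf1, -2.56 ± 0.54 for Cxcl10 and -2.30 ± 0.24 for Ifitm1, and -4.09 ± 0.43 for Oasl and -4.03 ± 0.48 for Ifit3. The members that were higher in normal epithelia were Irf8, Socs1, Bst2 and Isg20, with Bst2 at 1.02 ± 0.22 (adjusted p = 0.00168) the 1 that was higher at SCC. The spike-in controls averaged 11.05 to 11.41 in the epithelia and 11.43 to 12.53 in the fibroblasts. Aligned on them, 8 members were higher and 19 lower in the normal state, 12 and 16 in dysplasia and 4 and 18 in SCC, and the median of all probe sets was 1.01, 1.22 and 0.37 higher in the epithelia. The call of Ifngr2 was lost without normal epithelia 1 or 2, or normal fibroblasts 1 or 2 (0.0626 to 0.154) in the normal state, and without dysplasia epithelia 1 or 2, or dysplasia fibroblasts 1 or 3 (0.065 to 0.11) in dysplasia, where that of Ifngr1 was lost without dysplasia fibroblasts 3 (0.0846). At SCC the call of Irf7 was lost without SCC epithelia 1 or 3 (0.0561 to 0.0802), and that of Ifit1 without SCC epithelia 1 or 3, or SCC fibroblasts 1 or 2 (0.0506 to 0.0561). That of Rsad2 was lost without SCC epithelia 2 or 3, or SCC fibroblasts 3 (0.0516 to 0.138), and that of Igtp without SCC epithelia 3, or SCC fibroblasts 3 (0.142 to 0.144). That of Parp9 was lost without SCC epithelia 3, or SCC fibroblasts 1 or 3 (0.0516 to 0.164), and that of Dtx3l without SCC epithelia 1 or 3, or SCC fibroblasts 3 (0.0504 to 0.0742). Other probe sets of Igtp, Parp14 and Socs1 did not pass the test in the normal state and in dysplasia, nor did that of Parp14 at SCC. That of Ifngr2 was higher in the epithelia in both states (0.87 and 0.38, adjusted p = 2.33e-05 and 0.0189), where the probe set used was lower. So was that of Mx2 (0.46 and 0.50, adjusted p = 0.0054 and 0.00406), also at SCC (0.39, adjusted p = 0.0226). That of Stat2 was lower by the test at each stage (-0.75, -0.81 and -0.60), where the probe set used was not called. So were those of Dhx58 in the normal state (-1.06 and -0.67), with 1 higher at SCC (0.68). The fibroblasts also held the macrophage markers, at 11.42, 11.08 and 8.84 (normal), 8.69, 8.61 and 10.56 (dysplasia) and 9.95, 9.99 and 11.53 (SCC). Sample 3 was thus the lowest in the normal state and the highest in both lesions. The epithelia had 6.04 to 9.41. The 9 endothelial markers averaged 9.89 to 11.43 in the fibroblasts and 5.53 to 8.80 in the epithelia, and all 9 were lower in the epithelia at each stage. The part of these cells in the differences was not tested.

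The rest of the pathway was read from lists. Of 58 other interferon-induced genes, 10 were higher and 1 lower in dysplasia, and 25 were higher and 3 lower in SCC, against normal epithelia, where 7.0% and 7.54% of all probe sets were in dysplasia and 12.6% and 17.3% in SCC. The highest in SCC were Slfn4 (4.33 ± 0.68), Slfn5 (4.26 ± 0.44), the RNA helicase Ddx60 (4.12 ± 0.68), the immunoproteasome subunit Psmb8 (3.47 ± 0.37), the MHC class II chaperone Cd74 (2.82 ± 0.52) and Lgals3bp (2.69 ± 0.58), with adjusted p of 0.00225, 0.000403, 0.0029, 0.000447, 0.00472 and 0.00958. In SCC against normal fibroblasts 7 of the 58 were higher and none was lower by limma (backgrounds 7.82% and 7.43%), among them Plscr1 (1.77 ± 0.37) and the RNA helicase Mov10 (1.70 ± 0.17). Of 26 signalling genes, 7 were higher and 5 lower in SCC against normal epithelia (backgrounds 12.6% and 17.3%), and 5 were higher and none lower in SCC against normal fibroblasts (7.82% and 7.43%). The type I receptor chain Ifnar1 was higher in SCC in both layers. It was at 6.40, 5.87 and 6.33 (normal), 6.97, 7.04 and 7.25 (dysplasia) and 7.39, 8.30 and 7.34 (SCC) in the epithelia. The lambda receptor chain Ifnlr1 was lower in SCC than in normal epithelia, at 7.88, 7.78 and 7.78 (normal), 7.14, 7.43 and 7.06 (dysplasia) and 7.06, 7.0 and 6.91 (SCC).

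Of the interferons themselves, Ifng and Ifnb1 had low signals, nearly all of them under 6. Ifng was at 1.58, 2.62 and 2.20 (normal), 2.42, 3.07 and 2.06 (dysplasia) and 2.62, 1.78 and 2.09 (SCC) in the epithelia. It was at 3.24 to 4.42 in the fibroblasts. Ifnb1 was at 5.09 to 5.77 in the epithelia and 4.77 to 6.21 in the fibroblasts, and no stage comparison of Ifng or Ifnb1 passed the test. Between the layers Ifng was lower in the epithelia at each stage. The interferon Ifnk was higher in the epithelia than in the fibroblasts in the normal state and at SCC. Of 7 interferons and inducing cytokines, Il15, which sustains T and NK cells, was the 1 that was higher in SCC than in normal epithelia, at 6.22, 6.23 and 5.78 against 4.16, 3.93 and 4.41 (1.90 ± 0.18, adjusted p = 0.000269). Il15 was higher in dysplasia than in normal epithelia too. Il12a, a subunit of interleukin 12, was lower than in normal epithelia in dysplasia (-0.42 ± 0.11, adjusted p = 0.0405) and in SCC (-0.35 ± 0.11, adjusted p = 0.0447). In the fibroblasts Il15 was lower, at 8.13, 8.14 and 8.68 in SCC against 9.0, 9.13 and 9.03 in the normal state (adjusted p = 0.0494).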

How the data were processed

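RNA of 18 pooled rat tongue samples was hybridised to Affymetrix arrays. The authors summarised the probe sets with RMA in Affymetrix Expression Console (versions not given in the sources used here), and the deposited values are probe set intensity on a linear scale. Here log2 was taken with no offset, and 57 control probe sets were left out, which left 31042, of which 20826 named 1 gene, 436 several and 9780 none. Microarray precision is limited by the number of arrays.

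Stages were compared within a layer over its 9 arrays, and layers, and differences in change between layers, in 1 fit of 6 groups over 18 arrays, with lmFit and eBayes of limma 3.58.1 in R 4.3.3. The Benjamini-Hochberg adjustment ran over the 31042 probe sets, with calls at 0.05. Where a gene had several probe sets, that of highest mean log2 signal was used, and others are given where their call differed in SCC against normal epithelia or in a difference between layers, with the rest of Dhx58 added after its values were seen. Per-sample values are given for members called in a stage comparison and for Irf8, Cxcl11, Ifi27, Usp18 and Rsad2. The scripts were tested on simulated data. The members, gene lists and motifs were chosen with earlier results of these data known.

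Samples of different stages share numbers. Their deviations from the group means correlated over 0.1 for each same-numbered pair in SCC and dysplasia fibroblasts alone (0.321 to 0.592, against -0.527 to 0.352 for other pairs), where the block is given beside the result. Alternatives were quantile normalization, alignment on spike-in controls, a mean log2 signal of at least 6, an offset of 32, the number as a block, a trend with robust variances, a fold of at least 2 with unadjusted p under 0.05, the mean of all probe sets of a gene, 1 fit of 18 arrays for stages, the methods' t-test, each array left out, and, chosen after seeing the data, the third fibroblast samples left out.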

Additional observations from a re-analysis of the deposited data

Results flagged for a closer look

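The change from normal to a lesion differed between the epithelia and the fibroblasts for 17 member values, by limma's test of the difference itself in the fit of 18 arrays, given as epithelia minus fibroblasts on the log2 scale. From normal to dysplasia these were Ifitm1 (2.26) and Ifitm3 (1.28). From normal to SCC they were Cxcl10 (3.69), Ifitm1 (3.26), Irf1 (2.97), Ifi44 (2.80), Gbp2 (2.72), Ifit2 (2.72), Herc6 (2.72), Mx1 (2.65), Ifitm3 (2.24), Parp14 (1.90), Dtx3l (1.79), Mx2 (1.74) and Ifi27 (0.80), and Ifngr2 (-0.64) and Isg20 (-1.07), where the change was lower in the epithelia. No outlier test was run, since each group held 3 samples.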

How the results depend on the processing

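Counts are of members called in either direction. From dysplasia to SCC epithelia, where limma called none, 1 was called in 1 fit of all 18 arrays and 12 with a fold of at least 2 and unadjusted p. From normal to SCC epithelia the methods' t-test called 6. From normal to dysplasia fibroblasts, where none was called, 4 were with the replicate block, 1 in 1 fit of 18 arrays, 20 without the third fibroblast samples and 3 by the fold rule. From dysplasia to SCC fibroblasts, with 2, there were 24 with spike-in alignment, 4 with the signal filter, 6 with the replicate block, 4 in 1 fit, 1 by the methods' t-test and 17 without the third samples. From normal to SCC fibroblasts, with 12, there were 2 by the methods' t-test, 25 without the third samples and 5 by the fold rule. Between the layers at SCC the methods' t-test called 10 of 24. For the difference in change from normal to dysplasia, with 2, there were 4 with quantile normalization, 1 with spike-in alignment, 4 with the filter, 5 with the replicate block, 4 with the mean of all probe sets and 12 by the fold rule. From dysplasia to SCC, with none, there were 13, 1 and 5 with spike-in alignment, the mean of probe sets and the fold rule.

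With single arrays left out the counts were 3 to 6 and 16 to 23 in dysplasia and SCC against normal epithelia, 0 to 9 in SCC against dysplasia epithelia, 0 to 1, 0 to 3 and 2 to 13 in the fibroblasts in the order above, 29 to 32, 25 to 27 and 18 to 23 between layers in normal, dysplasia and SCC, and 1 to 4, 0 to 3 and 9 to 19 for differences in change. Epithelia minus fibroblasts turned positive with spike-in alignment for Ifngr2 (0.49) and Parp9 (0.24) in the normal state and for Ifngr1 (0.29), Ifngr2 (0.73), Ifi27 (0.15) and Ifi35 (0.11) in dysplasia, and with the mean of all probe sets for Ifngr2 (0.25) in the normal state. For the member values that limma called, over all alternatives, 1820 kept direction and side of the threshold, 278 lost the call and 7 turned. Values that gained a call under an alternative are not in these counts. The causes were not tested. Beyond the pair of stages named in the processing, not every same-numbered pair correlated over 0.1, within a layer (-0.109 to 0.229) or between layers (-0.306 to 0.122). Still, 5 of 6 arrays correlated most with their own number between normal and dysplasia fibroblasts, and between normal and SCC fibroblasts. Between dysplasia and SCC fibroblasts 4 of 6 did, so whether the numbers pair the samples was not settled for these or the other stages. With the replicate block the count between layers was 27 of 30 in the normal state, 25 of 27 in dysplasia and 18 of 24 in SCC.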
